A study of Mus musculus with 16 samples.

Results

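The RNA of 10 genes of the hypoxia-inducible factor (HIF) pathway was followed in tumor-associated macrophages (TAMs) from the mouse peritoneal cavity. The genes were *Hif1a*, *Epas1*, *Arnt*, *Egln1*, *Egln2*, *Egln3*, *Vhl*, *Hif1an*, *Vegfa*, and *Bnip3*. They were chosen by name with results of the contrast below known. All 10 were found among the 55604 genes listed and among the 16861 genes tested. The libraries came from C57BL/6 mice bearing peritoneal ID8 tumors, a mouse ovarian epithelial cancer line, at 6 to 7 weeks after inoculation. The study's mice were female and 6 to 8 weeks old. TAMs were recovered from peritoneal wash and sorted into a Tim-4+ group and a Tim-4- group, with no further treatment or genotype distinguishing them. Tim-4 marks long-lived resident macrophages in several tissues. Each group had 4 libraries, and the numbers 793, 784, 783, and 779 in the labels pair 1 Tim-4+ library with 1 Tim-4- library. The sources used here do not state whether a number stands for 1 mouse or for pooled mice. There was no tumor-free group and no measure of oxygen.

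HIFs are transcription factors made of an oxygen-regulated alpha subunit and a stable beta subunit. In the presence of oxygen, prolyl hydroxylases mark the alpha subunit, the VHL ubiquitin ligase binds it, and it is degraded, while a separate asparaginyl hydroxylase blocks its recruitment of coactivators. In low oxygen the alpha subunit accumulates, pairs with the beta subunit, and activates genes for glycolysis, angiogenesis, and mitophagy, so much of the regulation acts on protein and does not show in alpha subunit RNA. In macrophages, HIF-1α is also induced by inflammatory stimuli.

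Library totals ranged from 53527928 to 69594245 counts. *Timd4*, which encodes Tim-4, ranged from 524 to 1743 counts per 1000000 (CPM, scaled by trimmed mean of M-values) in Tim-4+ libraries and from 1.96 to 84.9 CPM in Tim-4- libraries. In Tim-4+ libraries it was at 1160 in 793, 1743 in 784, 524 in 783, and 1166 CPM in 779. In Tim-4- libraries it was at 84.9, 11.1, 22.3, and 1.96 CPM in the same order. The part of this uneven sorting in the differences between pairs was not tested. Defining macrophage markers (*Adgre1*, *Csf1r*, *Cd68*, *Itgam*, *Mertk*) were present in every library, with a summed level of 8358 to 9797 CPM in Tim-4+ and 4047 to 5879 CPM in Tim-4- TAMs. Each of 8 tumor epithelial and mesothelial markers (among them *Krt8*, *Krt19*, *Msln*, and *Wt1*) was lower in Tim-4+ TAMs (edgeR, adjusted p under 0.05), with a summed level of 107 to 392 CPM against 422 to 1954 CPM. By pair, that sum in the Tim-4- libraries was 422 in 793, 1278 in 784, 874 in 783, and 1954 CPM in 779, and the part of these cells in the results was not tested. In bulk RNA, fewer cells of a type and less RNA per cell cannot be told apart.

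The core letters that HIF dimers bind were searched as ACGTG and GCGTG on both strands in the 250 bases before each RefSeq start (GRCm38.p6). Of the 10 genes, 9 had an entry, with 11 windows, and 8 of these windows held at least 1 match. *Epas1* had no entry. For comparison, 38.6% of 32851 windows of the same length held at least 1 match and 16.7% held at least 2. Those windows were not matched to the windows of the 10 genes for base content, so nothing is read from the difference. The upstream sequences of the 3 prolyl hydroxylase genes, of which only *Egln3* differed by 2-fold between subsets, and of *Bnip3*, which differed mainly between pairs, are shown 5′ to 3′ on the strand of the gene. Capitals mark the matches, and bases that GENCODE places inside the gene are left out.
*Egln1* (chr8:124949325-124949504, minus strand): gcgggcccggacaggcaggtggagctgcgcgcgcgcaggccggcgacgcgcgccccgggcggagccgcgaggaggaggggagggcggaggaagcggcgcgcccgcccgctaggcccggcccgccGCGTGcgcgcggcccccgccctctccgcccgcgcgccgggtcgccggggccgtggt
*Egln2* (chr7:27166803-27167052, minus strand): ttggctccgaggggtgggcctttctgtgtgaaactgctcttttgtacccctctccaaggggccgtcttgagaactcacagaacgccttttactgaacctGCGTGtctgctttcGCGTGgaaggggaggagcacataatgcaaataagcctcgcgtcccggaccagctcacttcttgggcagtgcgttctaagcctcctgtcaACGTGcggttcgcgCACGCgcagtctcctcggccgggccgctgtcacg
*Egln3* (chr12:54203875-54204124, minus strand): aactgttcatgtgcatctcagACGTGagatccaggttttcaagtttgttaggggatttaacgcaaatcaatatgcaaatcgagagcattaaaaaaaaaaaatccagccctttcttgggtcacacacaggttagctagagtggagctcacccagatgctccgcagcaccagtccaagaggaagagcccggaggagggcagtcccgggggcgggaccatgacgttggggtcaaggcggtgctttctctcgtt
*Bnip3* (chr7:138909520-138909756, minus strand): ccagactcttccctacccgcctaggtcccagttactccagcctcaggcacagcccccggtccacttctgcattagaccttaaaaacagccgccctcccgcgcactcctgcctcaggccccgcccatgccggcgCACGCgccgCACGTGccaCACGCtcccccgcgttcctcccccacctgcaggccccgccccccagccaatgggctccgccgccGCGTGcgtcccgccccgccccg
In *Bnip3* the run CACGTG holds ACGTG on both strands, which overlap, and counts as 2 of its 5 matches. *Egln3* had 1 match and *Egln2* had 4 in the window shown, whereas *Egln1* had 2 in its whole window, of which 1 lies in the bases shown. Neither *Vhl* nor *Hif1an* had a match, nor did *Vegfa* in the window before its first listed start. In its other window *Egln2* had 1 match, and *Vegfa* had 2. Those windows, and that of *Hif1a* with 3 matches, lie wholly inside the gene as GENCODE places it. A match describes letters only, and binding was not measured.

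RNA for the 2 HIF alpha subunits among the 10 genes was distributed differently. *Epas1*, which encodes HIF-2α, was the higher of each pair in its Tim-4+ library, while *Hif1a*, which encodes HIF-1α, differed between pairs and little between subsets. *Epas1* (ENSMUSG00000024140.10, chromosome 17, 86753700 to 86833410, plus strand) measured 139 CPM in pair 793, 154 in 784, 184 in 783, and 145 in 779 in Tim-4+ TAMs. In Tim-4- TAMs it measured 36.3, 21.6, 41.9, and 26.3 CPM in the same order of pairs. The lowest Tim-4+ library was above the highest Tim-4- library, so the groups did not overlap. The means were 156 ± 19.98 CPM and 31.5 ± 9.24 CPM (SD, n = 4 each), a 5.07-fold difference, or a log2 fold change of 2.34 ± 0.16 (SE). The log2 ratio within pairs was 1.94 in 793, 2.83 in 784, 2.14 in 783, and 2.47 in 779. Because the 10 genes were chosen with results of this contrast known, their differences between subsets are given as descriptions, without a p-value for each. Which of them passed a threshold is given below, also as a description, and nothing is read from it.

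*Hif1a* (ENSMUSG00000021109.13, chromosome 12, 73901375 to 73947530, plus strand) measured 126 CPM in pair 793, 198 in 784, 129 in 783, and 102 in 779 in Tim-4+ TAMs. In Tim-4- TAMs it measured 118, 243, 126, and 85.4 CPM in the same order. Pair 784 was the highest and pair 779 the lowest in both subsets, and the groups overlapped. The means were 139 ± 41.3 and 143 ± 69.0 CPM, with a log2 fold change of 0.02 ± 0.12 (SE). *Hif1a* shares 148 exon bases with *Gm49321* on its own strand and 330 with *Gm15283* on the opposite strand, out of 5896, and reads in those stretches are uncertain because the use of strand in counting is not given in the sources used here.

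**Figure D1:**
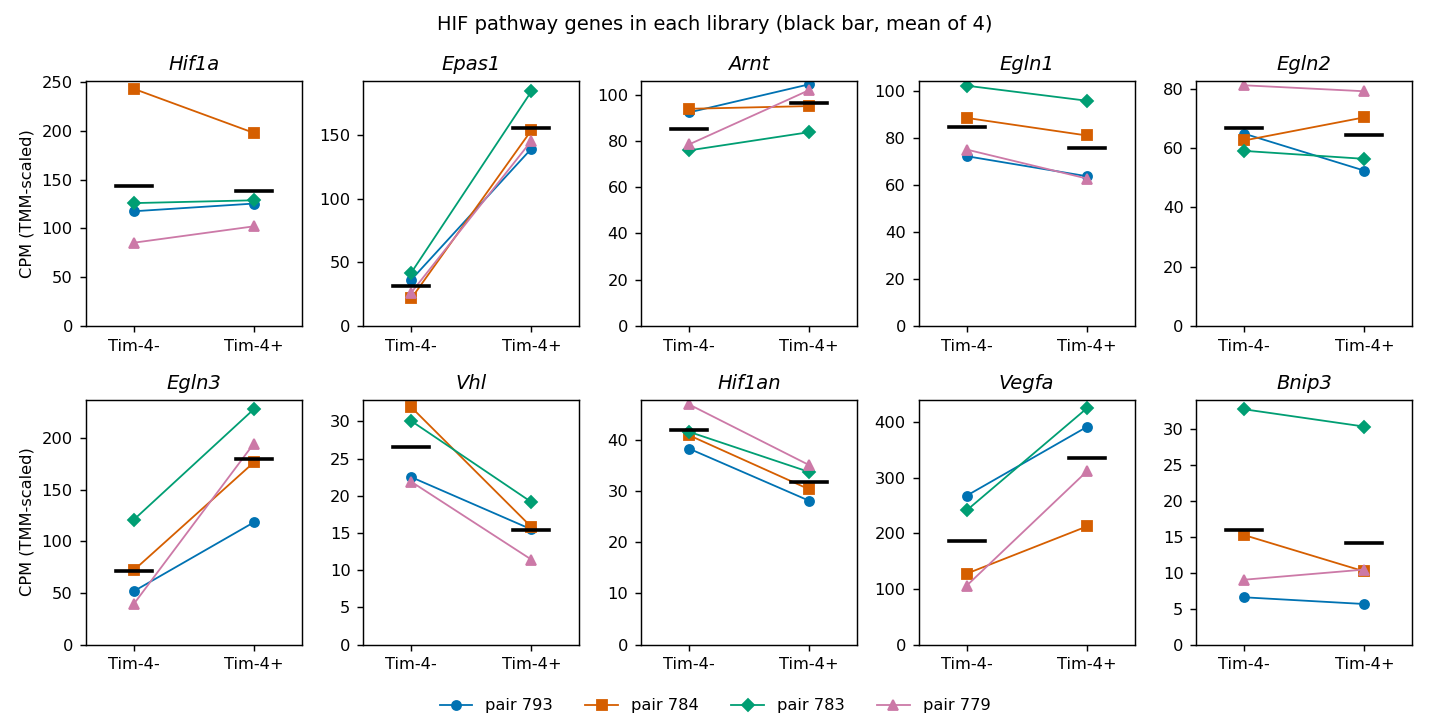
CPM (linear axes from 0) of the 10 genes in each of the 8 libraries, with a line joining the Tim-4- and Tim-4+ library of a pair and a black bar at the mean of 4. The lines of *Epas1* all rise from between 21.6 and 41.9 to between 139 and 184 CPM, while the order of the pairs is the same in both subsets for *Hif1a*.

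Levels of different genes were compared as CPM per kilobase of exon. On that scale *Epas1* was at 0.326, 0.0938, 0.351, and 0.325 times the level of *Hif1a* in the Tim-4- libraries of pairs 793, 784, 783, and 779. In the Tim-4+ libraries the ratio was 1.17, 0.819, 1.509, and 1.502. *Epas1* thus exceeded *Hif1a* in 3 of 4 Tim-4+ libraries and in 0 of 4 Tim-4- libraries, with mean ratios of 1.25 ± 0.328 and 0.274 ± 0.121. The exception was pair 784, where *Hif1a* was highest. *Epas1* went from the lowest of the 10 genes per length in Tim-4- TAMs (5.64 CPM per kilobase) to the third of 10 in Tim-4+ TAMs (27.9 CPM per kilobase), where its range overlapped that of *Hif1a* (23.5 CPM per kilobase). In Tim-4- TAMs its range overlapped that of the next gene, *Hif1an* (6.34 CPM per kilobase).

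*Arnt*, the beta subunit that both of these alpha subunits pair with, ranged from 83.8 to 104 CPM in Tim-4+ and from 75.9 to 93.9 CPM in Tim-4- TAMs. It was higher in Tim-4+ TAMs in 4 of 4 pairs, by a log2 fold change of only 0.18 ± 0.10 (SE), and the groups overlapped.

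The 3 *Egln* genes encode the HIF prolyl hydroxylases PHD2 (*Egln1*), PHD1 (*Egln2*), and PHD3 (*Egln3*), of which PHD2 and PHD3 are themselves known as HIF targets. Only *Egln3* of the 3 differed by more than 2-fold. *Egln3* (ENSMUSG00000035105.5, chromosome 12, 54178981 to 54203860, minus strand) measured 118 CPM in pair 793, 177 in 784, 228 in 783, and 195 in 779 in Tim-4+ TAMs. In Tim-4- TAMs it measured 51.6, 71.9, 121, and 39.0 CPM in the same order. It was higher in Tim-4+ TAMs within every pair, but the Tim-4+ library of pair 793 lay just below the Tim-4- library of pair 783, so the groups overlapped. The means were 179 ± 46.0 and 70.8 ± 35.99 CPM, a 2.69-fold difference with a log2 fold change of 1.43 ± 0.23 (SE).

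*Egln1* ranged from 62.7 to 95.8 CPM in Tim-4+ and from 72.2 to 102 CPM in Tim-4- TAMs, and was lower in Tim-4+ TAMs in 4 of 4 pairs by a small amount (log2 fold change, -0.17 ± 0.09, SE). *Egln2* ranged from 52.4 to 79.2 and from 59.1 to 81.2 CPM and had a log2 fold change of -0.06 ± 0.11 (SE), with 1 pair higher and 3 lower. Both overlapped between groups. *Egln2* shares 11 exon bases with *Cyp2t4* on the opposite strand. Per length, *Egln3* made up 54.97%, 58.2%, 64.7%, and 61.5% of the summed *Egln* level in the Tim-4+ libraries of pairs 793, 784, 783, and 779. It made up 30.9%, 36.5%, 47.8%, and 22.7% in the Tim-4- libraries, below every Tim-4+ library. The mean shares of *Egln3* were 59.8% ± 4.195 and 34.5% ± 10.5 (SD, n = 4 each).

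**Figure D2:**
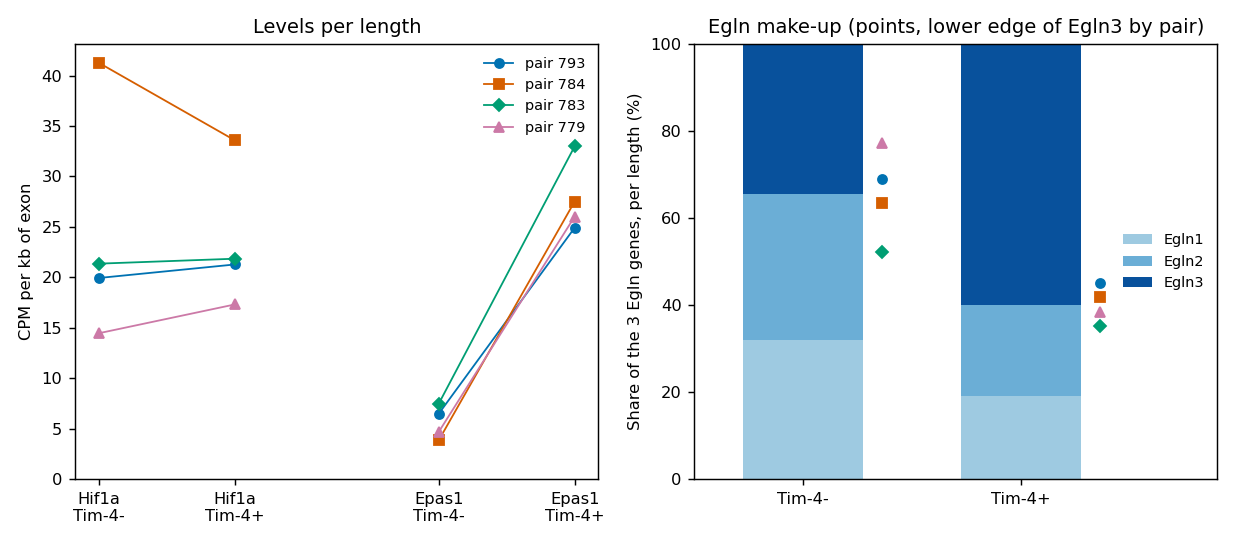
Left, CPM per kilobase of exon of *Hif1a* and *Epas1* in each library, joined by pair. Right, mean share in percent of the summed CPM per kilobase of the 3 *Egln* genes in each subset, with the points at the lower edge of the *Egln3* share in each pair. *Epas1* moved from 5.64 to 27.9 CPM per kilobase and the *Egln3* share from 34.5% to 59.8%.

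RNA for the other 2 regulators of the alpha subunits was lower in Tim-4+ TAMs. *Vhl*, the substrate receptor of the ubiquitin ligase that degrades hydroxylated alpha subunits (ENSMUSG00000033933.13, chromosome 6, 113623959 to 113631633, plus strand), measured 15.5 CPM in pair 793, 15.8 in 784, 19.1 in 783, and 11.4 in 779 in Tim-4+ TAMs. The Tim-4- libraries measured 22.5, 31.9, 30.1, and 21.9 CPM in the same order. The groups did not overlap, and the mean was 1.72-fold lower in Tim-4+ TAMs (15.5 ± 3.17 against 26.6 ± 5.14 CPM, log2 fold change -0.79 ± 0.13, SE).

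*Hif1an* encodes FIH, the asparaginyl hydroxylase (ENSMUSG00000036450.4, chromosome 19, 44562850 to 44576274, plus strand). It measured 28.1 CPM in pair 793, 30.3 in 784, 33.7 in 783, and 35.0 in 779 in Tim-4+ TAMs, and 38.2, 40.8, 41.5, and 46.9 CPM in Tim-4- TAMs. The groups did not overlap, although the difference was only 1.32-fold (31.8 ± 3.17 against 41.9 ± 3.62 CPM, log2 fold change -0.40 ± 0.10, SE). The log2 ratio within pairs lay between -0.45 and -0.30, the tightest range among the genes whose groups were separate.

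The 2 target genes among the 10 were unlike each other. *Vegfa*, the main angiogenic growth factor (ENSMUSG00000023951.17, chromosome 17, 46016993 to 46032369, minus strand), measured 391 CPM in pair 793, 212 in 784, 424 in 783, and 311 in 779 in Tim-4+ TAMs. In Tim-4- TAMs it measured 267, 127, 241, and 106 CPM in the same order. It was higher in Tim-4+ TAMs in 4 of 4 pairs, and the groups overlapped through pair 784, whose Tim-4+ library lay below the Tim-4- libraries of 793 and 783. The means were 335 ± 94.5 and 185 ± 80.7 CPM, a 1.88-fold difference with a log2 fold change of 0.91 ± 0.18 (SE). Per length, *Vegfa* was the highest of the 10 genes in both subsets, although its range overlapped that of *Egln3* in each.

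*Bnip3*, a mitochondrial receptor for mitophagy (ENSMUSG00000078566.8, chromosome 7, 138890836 to 138909519, minus strand), measured 5.63 CPM in pair 793, 10.2 in 784, 30.3 in 783, and 10.4 in 779 in Tim-4+ TAMs. Its Tim-4- libraries measured 6.56, 15.2, 32.7, and 9.01 CPM. Pair 783 stood above the others in both subsets, and the log2 fold change between subsets was -0.18 ± 0.16 (SE), with 1 pair higher and 3 lower. *Bnip3* shares 504 of 2265 exon bases with *Gm45507* on the opposite strand.

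**Figure D3:**
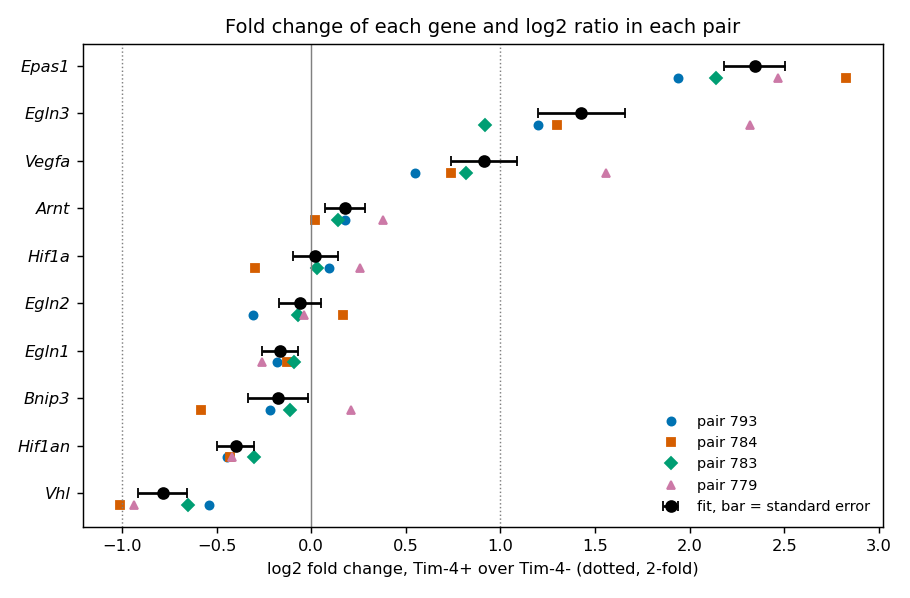
Log2 fold change of Tim-4+ over Tim-4- TAMs for the 10 genes (black, with standard error) and the log2 ratio in each pair (colored). All 4 pairs lie above 0 for *Epas1*, *Egln3*, *Vegfa*, and *Arnt* and below 0 for *Vhl*, *Hif1an*, and *Egln1*.

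Of the 10 genes, 2 (*Epas1* and *Egln3*) passed an adjusted p under 0.05 with at least a 2-fold difference, both higher in Tim-4+ TAMs, beside 3.8% of all genes tested in that direction and 9.59% in either. At an adjusted p under 0.05 of any size, 3 were higher (*Vegfa* in addition) and 2 lower (*Vhl* and *Hif1an*), beside 8.97% and 8.43% of all genes and 17.4% in either direction. The groups did not overlap for 3 of 10 (*Epas1* higher, *Vhl* and *Hif1an* lower), beside 6.84% of all genes higher, 5.92% lower, and 12.8% in either direction, and 7 of 10 had 1 direction in all pairs, beside 42.6%. With the pair block, 0 of the 10 were called lower by edgeR with TMM scaling and 0 by DESeq2 with its own size factors. At an unadjusted p under 0.05 in edgeR, 2 were lower, beside 16.9% of all genes. Scaling to total counts called 1 lower (*Vhl*, log2 fold change -1.14). Without pair 784, the 5 past the adjusted p became 1 (*Epas1*), and the log2 fold changes of *Egln3*, *Vegfa*, *Vhl*, and *Hif1an* were 1.47, 0.97, -0.71, and -0.39. Without pair 793 or pair 779 there were 4 (all but *Hif1an*). The choice of the genes used this contrast, so nothing is read from any of these counts.

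The spread of log2 CPM over the 8 libraries was divided into a share between subsets, a share between pairs, and a remainder. The share between subsets was 94.3% for *Epas1*, 74.7% for *Hif1an*, 70.3% for *Vhl*, and 67.7% for *Egln3*. For *Vegfa* the spread was divided about evenly, with 46.5% between subsets and 45.3% between pairs. For 5 genes the pairs held most of it, with 96.4% for *Bnip3*, 95.1% for *Hif1a*, 86.8% for *Egln1*, 81.9% for *Egln2*, and 51.2% for *Arnt* (32.1% between subsets). The median over all genes tested was 19.0% between subsets and 52.4% between pairs.

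**Figure D4:**
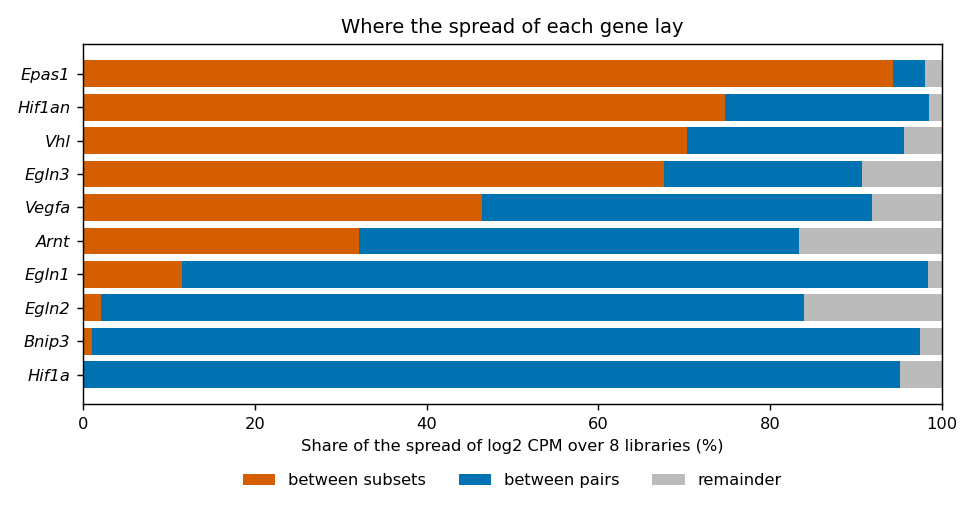
Share in percent of the spread of log2 CPM over 8 libraries that lay between subsets, between pairs, or in neither, for each of the 10 genes. By the share between subsets, *Epas1* (94.3%) and *Hif1a* (0.0583%) lie at opposite ends.

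The pairs did not rank the genes alike. Pair 783 was the highest pair in both subsets for *Epas1*, *Egln1*, *Egln3*, and *Bnip3*, pair 784 for *Hif1a*, and pair 779 for *Egln2* and *Hif1an*. In 2 lists of other genes known as HIF targets (48 genes in all, described below), the same pair was highest in both subsets for 34 genes (70.8%), beside 45.8% of all genes tested. That pair was 783 for 17 of the 48 (35.4%), beside 13.1% of all genes, and 784 for 12 (25%), beside 14.2%. *Car9*, which encodes carbonic anhydrase 9 and is often used as a marker of hypoxia, was at 21.4 CPM in the Tim-4+ library of pair 783 and at 2.58 to 4.54 in the other Tim-4+ libraries. Among Tim-4- libraries it was at 43.7 CPM in pair 783 and at 7.90 to 25.4 in the others. By contrast, *Slc2a1* (the glucose transporter GLUT1) was highest in pair 784, like *Hif1a*, at 269 CPM in Tim-4+ and 247 CPM in Tim-4- TAMs, against 56.8 to 168 in the other 6 libraries. *Slc16a3*, the lactate exporter MCT4, was also highest in pair 784, at 436 and 430 CPM against 139 to 279. *Car9*, *Slc2a1*, and *Slc16a3* were chosen for this description after their values were seen, and genes in a list are not independent of each other.

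The other genes of the pathway were read from 4 lists. These lists were also chosen with earlier results of these data known, so their p-values and shares are descriptions and not independent tests. The first held other HIF subunits, partners, and degradation machinery, of which 20 of 21 were tested (*P4htm*, with at most 14 counts in a library, was not). None of the 20 was called, which needed a 2-fold difference and an adjusted p under 0.05 (quasi-likelihood test of edgeR, adjusted by Benjamini-Hochberg over all genes). At an unadjusted p under 0.05, 3 were higher (15%) and 4 lower (20%), beside 16.8% and 16.9% of all genes, and DESeq2 called 0 higher and 1 lower. Without pair 783, edgeR called 2 lower. Past the adjusted p but under 2-fold, 3 were higher: *Os9*, a lectin known to bind HIF-1α and the prolyl hydroxylases (439 ± 54.3 against 235 ± 22.7 CPM, adjusted p = 0.00954), and the coactivators *Crebbp* (adjusted p = 0.0181) and *Ncoa1* (adjusted p = 0.0183). The chaperone *Hsp90aa1* was lower (140 ± 35.6 against 191 ± 52.6 CPM, adjusted p = 0.0423). At an adjusted p under 0.05 of any size, 8.97% of all genes were higher and 8.43% lower. The remaining VHL complex members *Elob*, *Eloc*, *Cul2*, and *Rbx1* did not pass. A further alpha subunit, *Hif3a*, was rare and did not pass (0.248 ± 0.166 against 0.352 ± 0.281 CPM, adjusted p = 0.666). The median log2 fold change of the list was -0.14, beside 0.00 for all genes.

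The second list held 19 glycolysis genes known as HIF targets, all tested. Of these, 0 were called higher and 1 lower, beside 3.8% and 5.79% of all genes. *Slc2a3*, the glucose transporter GLUT3, was 4.34-fold lower in Tim-4+ TAMs (1.14 ± 0.595 against 4.62 ± 1.02 CPM, log2 fold change -2.12 ± 0.38, SE, adjusted p = 0.0135, lower in 4 of 4 pairs), a call that ended (0 called) without pair 793, 784, or 779. At an adjusted p under 0.05 of any size 4 were higher, namely *Hk1*, *Gpi1*, *Aldoa*, and *Gapdh*, by 1.52- to 1.69-fold. *Pfkfb4* and *Pgk1* were lower in addition to *Slc2a3*. Over all genes, 8.97% were higher and 8.43% lower at that threshold. At an unadjusted p under 0.05, 5 were higher (26.3%) and 3 lower (15.8%), beside 16.8% and 16.9% of all genes, and DESeq2 called 0 higher and 1 lower. *Slc2a1* (log2 fold change 0.30 ± 0.13, SE, adjusted p = 0.152), *Hk2* (0.09 ± 0.15, adjusted p = 0.727), and *Ldha* (0.05 ± 0.15, adjusted p = 0.848) did not pass. The median was 0.11. Reads with more than 1 alignment were not counted, and *Gapdh*, *Aldoa*, *Pgk1*, and *Ldha* have processed pseudogenes, so their levels are uncertain.

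The third list held 29 other genes known as HIF targets, all tested, and moved in both directions, with 4 called higher and 4 lower, beside 3.8% and 5.79% of all genes. *Adm*, which encodes the vasodilator adrenomedullin, was 4.33-fold higher in Tim-4+ TAMs but rare (2.88 ± 2.95 against 0.676 ± 0.518 CPM, adjusted p = 0.0221). By pair it was at 0.546, 1.76, 7.20, and 2.02 CPM in Tim-4+ TAMs and at 0.0449, 1.08, 1.12, and 0.460 CPM in Tim-4- TAMs (793, 784, 783, 779). *Hilpda*, a lipid droplet protein that inhibits lipolysis, was 3.90-fold higher (111 ± 49.6 against 33.4 ± 25.7 CPM, log2 fold change 1.96 ± 0.24, SE, adjusted p = 0.00748). Its Tim-4+ values of 143, 90.3, 51.5, and 160 CPM and Tim-4- values of 67.0, 15.4, 11.2, and 40.0 CPM put pair 783 lowest in both subsets, the opposite of *Bnip3*. *Arg1*, arginase-1, was 2.92-fold higher (adjusted p = 0.00779). Each of these 3 was higher in 4 of 4 pairs.

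The 4 that were lower in Tim-4+ TAMs were lower in 4 of 4 pairs. *Ddit4*, an inhibitor of mTORC1, was lower (12.6 ± 6.66 against 50.8 ± 20.2 CPM, log2 fold change -2.07 ± 0.32, SE, adjusted p = 0.0127). *Angptl4*, an inhibitor of lipoprotein lipase, was 3.18-fold lower (2.70 ± 0.959 against 9.62 ± 6.08 CPM, adjusted p = 0.0084). *Car9* was 2.98-fold lower (adjusted p = 0.0137) and *Ndrg1*, a stress-responsive gene, was 2.11-fold lower (20.2 ± 18.7 against 39.5 ± 26.7 CPM, adjusted p = 0.0107). The tumor epithelial and mesothelial markers were lower in the same libraries, as given above, and their part in these 4 differences was not tested. The highest Tim-4- library was pair 779 for those markers, for *Ddit4*, and for *Angptl4*, and pair 783 for *Car9* and *Ndrg1*. At an unadjusted p under 0.05, 12 of the 29 were higher (41.4%) and 8 lower (27.6%), beside 16.8% and 16.9% of all genes. At an adjusted p under 0.05 of any size, 8 were higher and 6 lower, beside 8.97% and 8.43% of all genes. The median log2 fold change was 0.23. Beside the genes called, *Bhlhe40*, a transcriptional repressor (log2 fold change 0.99 ± 0.16, SE), *Ankrd37* (0.86 ± 0.22), *Hmox1*, heme oxygenase-1 (0.79 ± 0.20), and *P4ha2*, a collagen prolyl hydroxylase subunit (0.78 ± 0.17), were the higher ones. The lower ones were *Tfrc*, the transferrin receptor (-0.70 ± 0.11), and *Higd1a*, a mitochondrial protein (-0.52 ± 0.15). Without pair 784, 0 were called in either direction. Without pair 779, 2 were called higher, and without pair 793, 2 were called lower.

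The last list held other VEGF ligands and receptors, of which 6 of 9 were tested. The ligands *Vegfc*, *Vegfd*, and *Pgf* were below the count filter, with at most 79, 15, and 22 counts in a library. None was called higher (0 at an unadjusted p under 0.05 in edgeR, and 0 called by DESeq2). In the other direction 2 receptors were called lower, beside 5.79% of all genes. At an unadjusted p under 0.05 in edgeR, 4 were lower (66.7%), beside 16.9% of all genes. *Flt1*, which encodes VEGFR1, a receptor of VEGF-A, was lower in Tim-4+ TAMs (3.88 ± 1.95 against 11.9 ± 6.43 CPM, log2 fold change -1.59 ± 0.34, SE, adjusted p = 0.023). *Flt4*, which encodes VEGFR3, was 3.30-fold lower (6.05 ± 2.57 against 21.9 ± 14.0 CPM, adjusted p = 0.00395). The tumor epithelial and mesothelial markers were lower in the same libraries, and their part in these 2 differences was not tested. The highest Tim-4- library was pair 779 for those markers and for *Flt4*, and pair 784 for *Flt1*. Without pair 793, 784, or 779, the count called lower in this list was 1. The coreceptor *Nrp1* did not pass (200 ± 144 against 266 ± 148 CPM, adjusted p = 0.0545). *Kdr*, VEGFR2, was at most at 0.892 CPM. Summed endothelial markers were at 2.27 to 6.47 CPM in Tim-4+ and at 2.49 to 5.90 CPM in Tim-4- TAMs. *Epas1* is also known from endothelium, and the part of such cells in its difference was not tested. Of the 4 endothelial markers tested, *Egfl7* was higher in Tim-4+ TAMs (log2 fold change 3.67 ± 0.53, SE, adjusted p = 0.00848), at 0.645 to 1.93 against 0.0307 to 0.180 CPM. *Pecam1* (0.79 ± 0.31, adjusted p = 0.112), *Cdh5* (-0.96 ± 0.36, adjusted p = 0.106), and *Kdr* (-0.77 ± 0.51, adjusted p = 0.341) did not pass. *Tek* and *Emcn* were not tested, with at most 15 and 9 counts in a library.

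**Figure D5:**
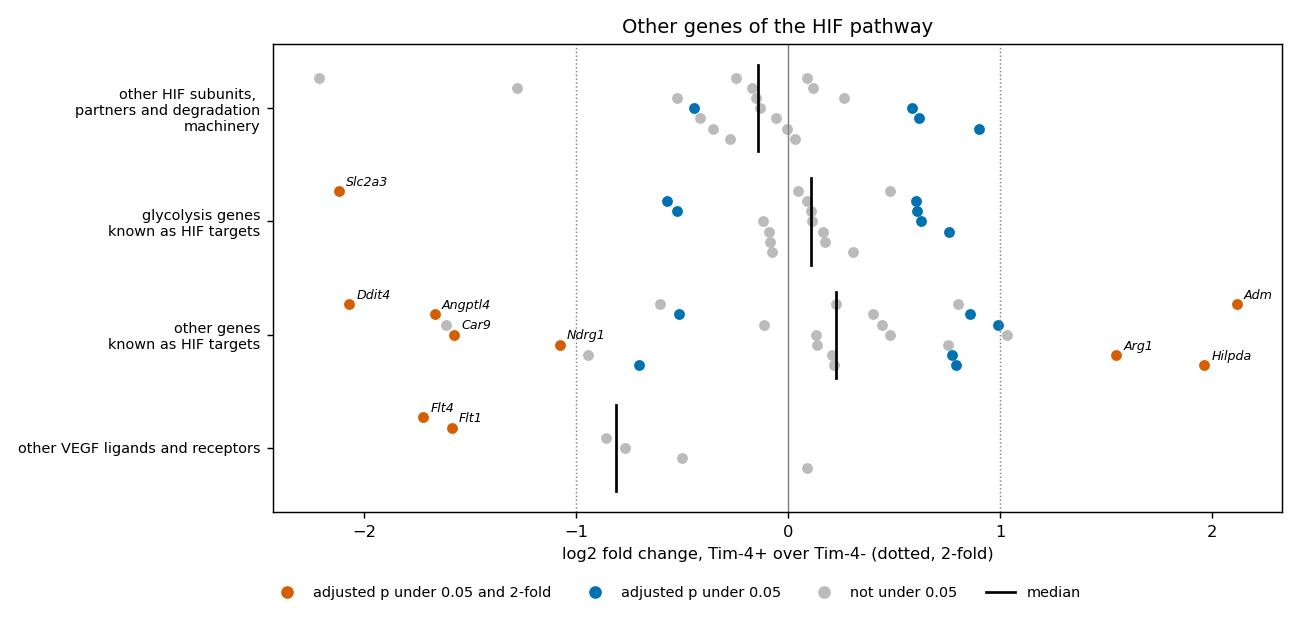
Log2 fold change of Tim-4+ over Tim-4- TAMs for tested genes of the 4 lists, colored by the test, with a black line at the median of a list. The medians are -0.14, 0.11, 0.23, and -0.81 from top to bottom, and 2-fold calls lie on both sides of 0 for the other genes known as HIF targets.

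The genes whose log2 CPM over the 8 libraries most resembled that of *Epas1*, among 8758 genes whose mean reached 10 CPM, were *Vsig4* (Pearson r = 0.990), *Rab7* (r = 0.985), *Gm5216* (r = 0.984), *Glb1* (r = 0.984), and *Lbp* (r = 0.983). *Vsig4* encodes the complement receptor CRIg, *Rab7* a late endosome GTPase, *Glb1* the lysosomal beta-galactosidase, and *Lbp* the lipopolysaccharide-binding protein. *Rab7* had a log2 fold change of only 0.49. The genes that most resembled *Hif1a* were *Clec5a* (r = 0.983), *Gpr84* (r = 0.978), *Kif5b* (r = 0.976), *Krit1* (r = 0.973), and *Syncrip* (r = 0.973), with log2 fold changes between -0.09 and 0.40. *Clec5a* and *Gpr84* encode myeloid surface receptors. These correlations describe 8 libraries that share subsets, pairs, and depth.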

How the data were processed

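RNA from sorted Tim-4+ and Tim-4- TAMs was sequenced as 8 libraries in 2 lanes each, after ribosomal RNA removal and stranded, paired-end library preparation. The authors deposited raw counts of reads per gene for each lane, whole numbers without normalization. Per the labels, TopHat2 2.0.13, Cufflinks, and Cuffdiff 2.2.1 were used on GRCm38 (mm10), whereas the methods name hg19. The read counter is not given in the sources used here. Of 16 lanes, 15 list mouse Ensembl identifiers. The lane listed by symbol was joined by order after *Timd4*, found in its first row, was put back in place (96.9% of 52760 symbols matched). GENCODE M21 gave names and exon lengths.

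The lanes of a library were summed. Totals were 53527928 to 57768202 counts (Tim-4+) and 55618306 to 69594245 (Tim-4-). A gene was tested if 4 or more libraries had 10 or more counts. The test was edgeR 4.0.16 (R 4.3.3), robust quasi-likelihood, with TMM factors and a block for the pair. P-values were adjusted by Benjamini-Hochberg over 16861 genes. A call needed an adjusted p under 0.05 and at least 2-fold. The SE is the log2 fold change divided by the square root of F. P-values set the difference between subsets against the spread that the pair block leaves among these libraries. The fit was run on simulated counts before use, as a check of the code. That simulation gave all genes the same dispersion and balanced rises and falls, so it does not measure error rates in these data.

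The block follows the numbers in the labels. Same-numbered libraries deviated together (r of 0.277 to 0.498 over genes). The genes followed and the lists were chosen with earlier results of these data known. Named from the lists were called genes, at most 4 in each direction, of which 1 in the third list is counted but not reported here, with a few further genes as values, and the 5 genes most correlated with *Epas1* and with *Hif1a*. Promoter sequences are from RefSeq. Alternatives were DESeq2 size factors, total counts, no block, other count filters, DESeq2 1.42.0, lane 2 only for the symbol-listed library, and each pair left out. Monocyte, T cell, B cell, granulocyte, dendritic, resident macrophage, and erythroid markers were also summed. Monocyte markers were at 52.6 to 111 CPM in Tim-4+ and 168 to 207 CPM in Tim-4- TAMs. Resident markers, *Timd4* among them, were at 1812 to 4003 and 304 to 771 CPM. At an adjusted p under 0.05 in edgeR, 5 of 5 resident markers were higher in Tim-4+ TAMs. Of 4 monocyte markers, 2 were lower (*Ccr2* and *Ly6c2*). Over both subsets the others were at most 1.03 (T cell), 3.82 to 12.8 (B cell), 1.78 to 3.23 (granulocyte), 4.35 to 19.6 (dendritic), and 0.0200 to 237 CPM (erythroid). Of these, *Zbtb46* (dendritic) was lower and *Hba-a1* (erythroid) higher in Tim-4+ TAMs at that threshold.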

Additional observations from a re-analysis of the deposited data

How the results depend on the processing

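The log2 fold change of *Epas1* was 1.99 to 2.48 under the 11 alternatives. Scaling to total counts moved the median of all genes to -0.36, and with it *Hif1a* to -0.34 and *Arnt* to -0.18 (reversed). Relative to that median they were at 0.02 and 0.18, and *Epas1* and *Egln3* at 2.34 and 1.43. Scaling shifts all genes of a library together, so these values are close to the TMM ones by construction and are no separate check. The TMM factors were 0.833 to 0.948 in Tim-4+ and 1.05 to 1.18 in Tim-4- libraries. *Hif1a* was at -0.045 without the pair block and from -0.062 to 0.12 with 1 pair left out, below 0 without pair 779, and *Egln2* was from -0.14 to 0.026, above 0 without pair 793. Calls over all genes (641 higher, 976 lower) were 398 and 1936 with total counts, 127 and 80 without the block, and 67 to 775 higher and 51 to 1446 lower with 1 pair left out, fewest without pair 784. Among the 10 genes, the 2 called higher became 1 without the block and 1 to 3 with 1 pair left out, and 1 was called lower with total counts (*Vhl*, -1.14). The 5 past the adjusted p became 8 with total counts, 1 without the block, and 1 to 5 with 1 pair left out. With total counts the list medians were -0.50 (HIF machinery), -0.25 (glycolysis), and -0.13 (other targets). The HIF machinery had 1 gene called lower with total counts and with DESeq2, and 0 to 2 with 1 pair left out. Without the block the other targets had 0 called higher and 1 lower, and the VEGF list 0 lower. With 1 pair left out, other targets had 0 to 6 called higher and 0 to 5 lower, glycolysis 0 to 1 lower, and VEGF 1 to 3 lower. The cause was not tested. At these depths the lowest count of any of the 10 genes in a library was 268 (*Bnip3*).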
